A study of Homo sapiens with 3 samples.

Results

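The genes described here encode the subunits of ligand-gated neurotransmitter receptors. They were taken from the gene table by symbol, as every row whose name starts with GABR, GRIA, GRIK, GRIN, GRID, GLRA, GLRB, CHRN, HTR3 or P2RX, without symbols that hold a hyphen, GRINA and pseudogenes. The rule found 70 of the 58735 genes in the table. GLRA4, a glycine receptor gene annotated as a pseudogene in GENCODE release 44, was left out by it. GRID2IP, which encodes a protein that binds a delta glutamate receptor and is not a channel subunit, matches the prefix and was kept.

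The study profiled H660 (NCI-H660), a human neuroendocrine prostate cancer line, by RNA-seq after exposure to JG231, an allosteric inhibitor of the chaperone HSP70. 3 libraries of the unmodified parental line were analysed, 1 each from cells given the vehicle DMSO, 2.5 µM JG231 and 5 µM JG231, all for 24 h. The table has a single column per condition, so neither a standard deviation nor a p-value is given. A legend of the study speaks of averages over repeated experiments, and whether a column pools several cultures is not given in the sources used here. All values come from 1 line grown in culture, and the 2 doses share a single DMSO library, so their comparisons with it are not independent.

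Ligand-gated ion channels are assemblies of subunits around a central pore that opens when a transmitter binds. Nicotinic, 5-HT3, GABA-A and glycine receptors form the pentameric Cys-loop family, the first pair passing cations and the other two passing chloride. AMPA, kainate, NMDA and delta receptors are tetramers of the glutamate receptor family, and P2X receptors are ATP-gated trimers. Neuroendocrine cells share secretory and excitable features with neurons, and nicotinic and GABA-A subunits are known from neuroendocrine tumors and from lung and adrenal neuroendocrine cells.

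Levels are FPKM, fragments corrected for transcript length and for the total of mapped fragments, which are comparable between genes because they are per length. Changes are differences of log2(FPKM + 0.1), so a change of a gene near 0 is understated. A gene was called lower or higher when its log2 change passed 0.25, the size of the filter in the study's methods, and a wider threshold of 1 was also used. Genes that reached 1 FPKM in at least 1 library were treated as expressed.

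Depth recovered from the steps between low FPKM values was about 16100000 fragments in the DMSO library, 20400000 at 2.5 µM and 24100000 at 5 µM. Fragments rebuilt from these steps and the length of all exons summed to 104.5%, 111.4% and 116.1% of these depths. The depths and the fragment numbers are therefore approximate. The DMSO library, the shallowest, listed 21862 genes above 0, against 19352 and 17293. Neuroendocrine markers were present in all libraries, and 8 of 8 on the list reached 1 FPKM. Their summed level was 459 FPKM in DMSO, 209 at 2.5 µM and 186 at 5 µM. The sample records call the cells prostatic adenocarcinoma, but KLK3 and TMPRSS2, markers of luminal prostate cells, stayed under 1 FPKM and KLK2 was listed at 0. The epithelial keratins KRT8 and KRT18, on the same luminal list of 7 genes, were high and called higher at both doses. KRT8 was at 224, 414 and 505 FPKM and KRT18 at 170, 299 and 380 FPKM. Of the fibroblast list DCN and PDGFRB were at 0, and the list summed to 0.840, 1.02 and 1.54 FPKM. COL1A1 on this list was at 0.823, 0.745 and 1.27 FPKM and was called higher at 5 µM. LUM was at 0, 0.212 and 0.221 FPKM, and COL1A2 stayed under 0.1. Of the 3 immune markers PTPRC and CD3E were at 0 in every library and CD68 was at 0.284 FPKM in DMSO and 0 with JG231, and the 3 skeletal muscle markers were at 0 in every library. Fewer cells of a type and less RNA per cell cannot be told apart in such bulk samples.

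Of the 70 genes, 18 (25.7%) reached 1 FPKM in at least 1 library, against 60.3% of the 19831 protein-coding genes in the table. A further 26 were above 0 without reaching 1 FPKM, and 26 were listed at 0 in all 3 libraries. In DMSO 18 genes reached 1 FPKM, at 2.5 µM 13 did and at 5 µM 15 did. Among all genes of the table the numbers were 14769, 13087 and 12886. No gene reached it with JG231 without also reaching it in DMSO. CHRNA3, GABRQ and GLRA3 reached it in DMSO and in neither JG231 library. GABRD and GRIN3B reached it in DMSO and at 5 µM, and the other 13 in every library.

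The expressed genes came from 7 of the 9 receptor families, as the plot of highest levels by family shows. Nicotinic receptors contributed 5 of 16 genes, GABA-A receptors 5 of 19, kainate receptors 3 of 5, and glycine receptors 2 of 4. The 5-HT3 (1 of 5), NMDA (1 of 7) and P2X (1 of 7) families contributed a single gene each. No AMPA gene and no delta receptor gene reached 1 FPKM.

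**Figure D1:**
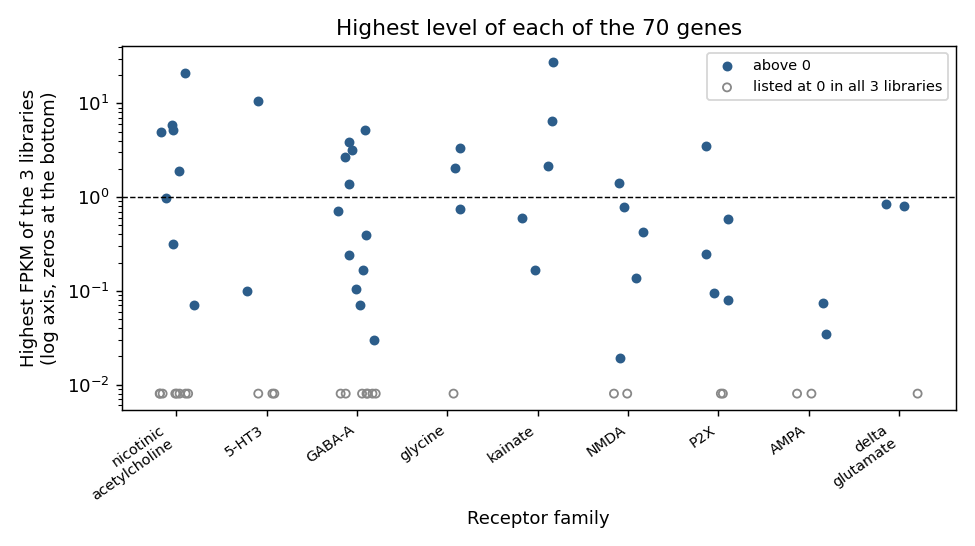
Highest FPKM of the 3 libraries (y axis, log scale) for each of the 70 genes, grouped by receptor family on the x axis. Each filled point is a gene above 0, open points at the bottom are the 26 genes listed at 0 in every library, and the dashed line is 1 FPKM, which 18 genes reach.

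GRIK3 and CHRNA9 had the highest single values among the members. Added over the 70 genes, FPKM was 106 in DMSO, 74.2 at 2.5 µM and 69.3 at 5 µM. GRIK3, a kainate receptor subunit, held 25.7% of the DMSO sum, 6.87% at 2.5 µM and 6.77% at 5 µM. CHRNA9, a nicotinic subunit, held 15.5%, 25.9% and 30.4%. Without both genes the sums were 62.5, 49.8 and 43.5 FPKM.

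The upstream sequences of GRIK3 and CHRNA9 are shown because these genes had the highest levels and lay on opposite sides of 0 in the deposited scaling, though after rescaling CHRNA9 did not lie above 0. Both are 250 bases before the transcript start in RefSeq on GRCh38.p14, written 5′ to 3′ on the gene's strand, with CG dinucleotides in capitals. GRIK3 lies on the minus strand (chr1:37034516-37034765) with 29 CG, and CHRNA9 on the plus strand (chr4:40335083-40335332) with 3.
GRIK3: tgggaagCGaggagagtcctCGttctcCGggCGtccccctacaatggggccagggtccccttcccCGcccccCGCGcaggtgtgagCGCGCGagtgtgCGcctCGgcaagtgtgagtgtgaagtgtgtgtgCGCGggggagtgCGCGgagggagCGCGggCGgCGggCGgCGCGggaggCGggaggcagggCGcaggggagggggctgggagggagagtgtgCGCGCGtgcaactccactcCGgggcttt
CHRNA9: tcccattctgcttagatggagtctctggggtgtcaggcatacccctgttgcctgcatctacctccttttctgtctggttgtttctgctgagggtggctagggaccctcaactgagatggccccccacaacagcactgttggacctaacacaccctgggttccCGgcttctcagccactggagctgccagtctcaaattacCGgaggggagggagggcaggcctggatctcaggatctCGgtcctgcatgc
The GRIK3 window holds CG from end to end, and the 3 of CHRNA9 lie in the stretch nearer the start. RefSeq promoters of 300 bases, 250 before and 50 after the start, were matched for 13 of the 18 expressed genes. HTR3A, GABRA3, GABRD and CHRNA5 were among those without a match. Over the 13 matched genes the median was 27 CG and 69.67% G and C, against 14 CG and 58.67% over all 35116 promoters of the table. GRIK3 and GLRB, with 37 each, were the highest of the 13 and CHRNA9, with 5, the lowest. Such counts are descriptions of the windows, and their part in expression was not tested.

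3 motifs were searched on both strands of these windows. They were CACGTG, the E-box that Myc proteins recognise, TGACGTCA, the cyclic AMP response element, and TGATGNAAT, the core of the element bound by ATF4. CACGTG is its own reverse complement, as is TGACGTCA, and none of the 3 contains another. The first was present in 7.26% of all promoters, the second in 1.85% and the third in 0.991%. 0 of the 13 matched genes held any of them. This says only that the letters are not in these windows.

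Against DMSO, more of the expressed subunit genes were lower than higher in both JG231 libraries. At 5 µM 12 of 18 (66.7%) were lower and 3 (16.7%) higher, against 44.5% and 35.8% of the 16347 genes of the table that reached 1 FPKM. At 2.5 µM 12 were again lower and 3 higher, with 42.9% and 35.9% in the table. With a pseudocount of 1, which shrinks changes of low genes, 8 were lower and 3 higher at 2.5 µM, in a table with 40.4% lower and 33.8% higher. Since 3 of the 18 passed the filter through their DMSO value alone, they could only be lower, and the counts are a description of 18 genes without a test. Restricted to the 14156 genes whose highest level lay between 1 FPKM and that of GRIK3, the table had 48.5% lower and 31.2% higher at 5 µM, and 46.5% and 32.1% at 2.5 µM. The median change of the 18 genes was -0.52 at 5 µM and -0.31 at 2.5 µM, and that of the table -0.09 and -0.07.

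With the wider threshold, 5 genes were lower at 5 µM and 0 higher, in a table with 24.2% lower and 14.5% higher. At 2.5 µM 7 were lower and 1 higher, in a table with 21.7% lower and 13% higher. The 5 lower genes were 27.8% of the 18, close to the share of the table, and the 7 lower genes 38.9%. CHRNA3, GABRQ and GLRA3 are in both sets, and having passed the filter through DMSO alone they could only be lower. After the libraries were scaled to equal sums over genes other than mitochondrial and small RNA genes, 19 genes reached 1 FPKM, of which 16 were lower and 1 higher at 5 µM, and 15 lower and 2 higher at 2.5 µM. The table under the same scaling had 59% lower and 22.8% higher at 5 µM, and 55.4% and 24.5% at 2.5 µM. With changes centred on the median gene, 12 genes were lower and 3 higher at 5 µM and 9 lower and 4 higher at 2.5 µM, in a table with 41.5% and 39.2%, and 40.5% and 38.7%. That rescaling moves every gene, including each one described singly in the paragraphs that follow, by about -0.38 at 5 µM and -0.29 at 2.5 µM, since the sums over the other genes were 195537 FPKM in DMSO, 239353 at 2.5 µM and 254518 at 5 µM. Mitochondrial and small RNA genes held 40.5%, 24.6% and 29.2% of all FPKM.

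Between the doses, 6 genes, among them HTR3A, GLRA3, GLRB, GRIK2 and CHRNA5, were lower at 5 µM than at 2.5 µM, in a table with 30.4% lower. 3 were higher (GABRD, GRIN3B and CHRNB1), in a table with 25.3% higher. The median difference was -0.03.

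**Figure D2:**
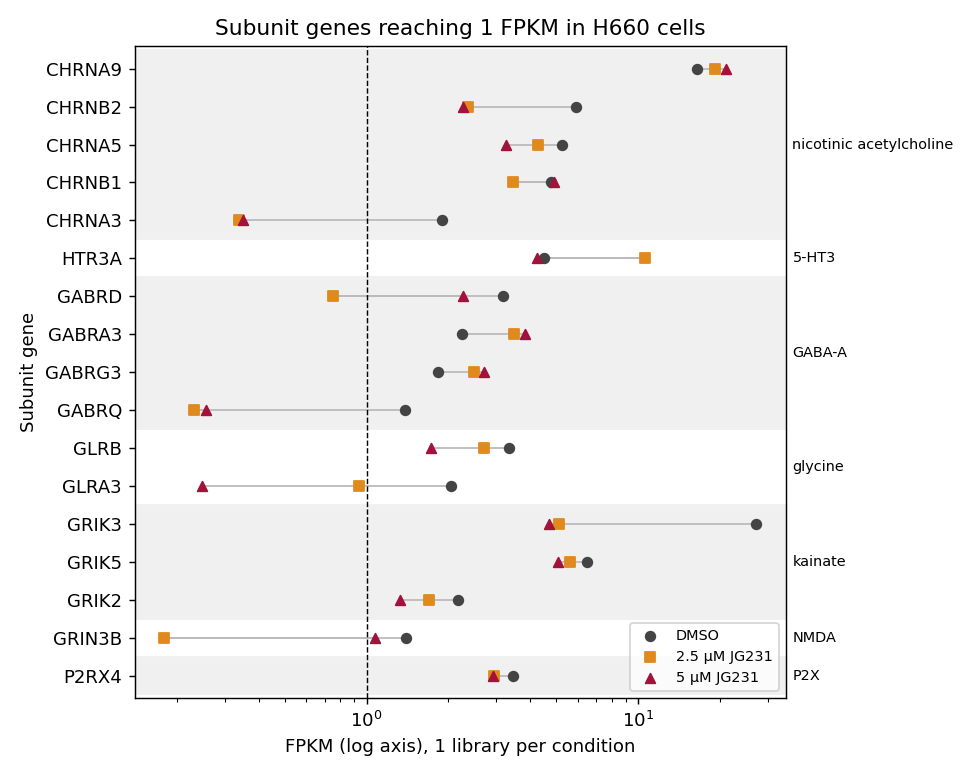
FPKM (x axis, log scale) of expressed subunit genes in the single library of each condition, with circles for DMSO, squares for 2.5 µM and triangles for 5 µM JG231, for 17 of the 18 genes, grouped by family. GRIK3 was at 27.3 FPKM in DMSO and 4.69 at 5 µM, while the CHRNA9 symbols lie between 16.5 and 21.1; the dashed line is 1 FPKM.

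2 yardsticks stand in for the missing replicate error. The spread is a robust SD of the log2 difference between the JG231 libraries over the 500 protein-coding genes nearest in mean FPKM, and it includes any difference between the doses. The counting interval is an exact 95% binomial interval of the ratio of fragments, without the pseudocount. Fragments were estimated from FPKM and the canonical transcript length, which gives fewer of them than the length of all exons, and the interval covers counting error only, since copies made by PCR are not independent molecules. At 5 µM 9 decreases and 2 increases were larger than the spread, and at 2.5 µM 8 and 2. CHRNA3, GABRQ and GLRA3, which the filter allowed only to be lower, are among these decreases and those of the interval counts below. Of 11955 protein-coding genes that reached 1 FPKM, 33.1% were lower and 34.1% higher by more than their spread at 5 µM, and 29.9% and 33.4% at 2.5 µM. The interval excluded 0 for 11 decreases and 3 increases at 5 µM, and for 12 and 4 at 2.5 µM. Over the same protein-coding genes it lay below 0 for 41.3% and above 0 for 39.8% at 5 µM, and for 38.5% and 40.2% at 2.5 µM.

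**Figure D3:**
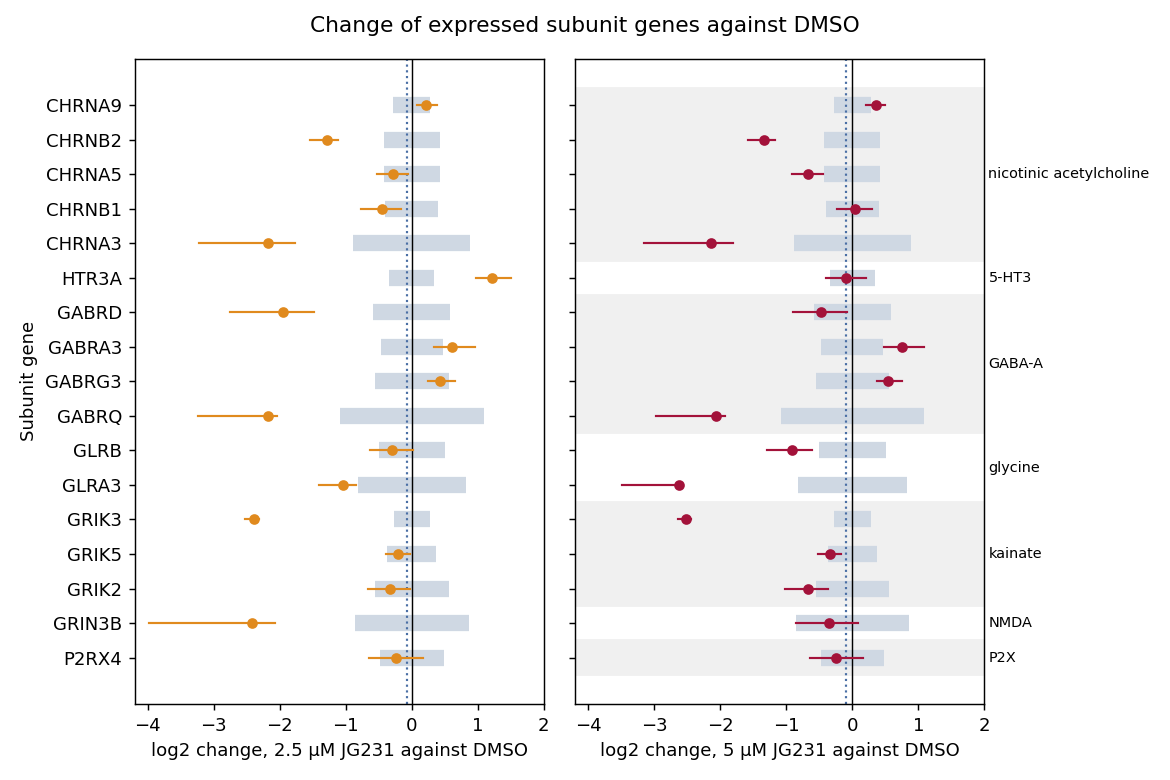
Log2 change of FPKM against DMSO (x axes) at 2.5 µM (left) and 5 µM (right) for 17 of the 18 expressed genes. Points are the changes with a pseudocount of 0.1, bars the 95% counting intervals of the ratio without it, grey-blue boxes the spread around 0, and the dotted line the median of all genes reaching 1 FPKM; GRIK3, CHRNB2, CHRNA3, GABRQ and GLRA3 lie left of -1 in both panels.

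Among nicotinic receptors, cation channels opened by acetylcholine, CHRNA9 had the highest level. CHRNA9 (ENSG00000174343, chromosome 4, 40335333 to 40355217), which encodes a subunit best known from cochlear hair cells, was at 16.5 FPKM in DMSO, 19.2 at 2.5 µM and 21.1 at 5 µM. Its change at 5 µM was 0.35 (interval 0.21 to 0.50), above the spread of 0.28, and at 2.5 µM 0.22 (0.07 to 0.38), within it. The direction rests on the scaling of the libraries: after the rescaling without mitochondrial and small RNA genes the changes were -0.02 and -0.07. CHRNA10, the usual partner of CHRNA9, came nearest to 1 FPKM among the genes not counted as expressed, with 0.966, 0.454 and 0.769.

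CHRNB2 and CHRNA3, subunits of neuronal and ganglionic receptors, were lower in both JG231 libraries. CHRNB2 (chromosome 1) was at 5.90 FPKM in DMSO, 2.36 at 2.5 µM and 2.27 at 5 µM. The JG231 libraries lay close together, with changes of -1.29 (interval -1.54 to -1.12) and -1.34 (-1.58 to -1.18) against a spread of 0.42. CHRNA3 was at 1.89, 0.340 and 0.349 FPKM, which is about 92, 21 and 25 fragments by the canonical transcript length and 145, 33 and 40 by the length of all its exons. The latter come close to whole numbers, so the intervals drawn for CHRNA3 from the former are wider than they need be. Its changes were -2.18 and -2.15, beyond a spread of 0.88.

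CHRNA5 encodes an accessory subunit that joins receptors with CHRNA3 or CHRNB2. It was at 5.25 FPKM in DMSO, 4.29 at 2.5 µM and 3.27 at 5 µM, lower at the higher dose by 0.38 on the log2 scale. Against DMSO the change was -0.28 at 2.5 µM, within the spread of 0.43, and -0.67 at 5 µM, beyond it. CHRNA5 and CHRNA3 are neighbors on chromosome 15 (78565520 to 78595269 and 78593052 to 78621295), on opposite strands, with ends that overlap by 2218 bp. The libraries were strand-specific per the sample records, but whether the counting used the strand is not given in the sources used here, so the division of reads in that stretch is uncertain. The lncRNA AC027228.2 lies within CHRNA5 on the opposite strand over 2154 bp and was at 2.05, 1.05 and 0.482 FPKM. AC067863.2 shares 122 bp with CHRNA3 on the same strand and was at 3.57 FPKM in DMSO and listed at 0 with JG231. Their part in the values of the subunit genes was not tested. CHRNB4, the remaining gene of the locus and named here after its values were seen, was at 0.312 FPKM in DMSO and listed at 0 with JG231.

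CHRNB1, a subunit of the muscle-type receptor, was at 4.78 FPKM in DMSO, 3.47 at 2.5 µM and 4.91 at 5 µM. The library at 2.5 µM stood below the other two, by -0.45 against DMSO, while the change at 5 µM was 0.04, or -0.34 after the rescaling. Its muscle partners CHRNA1, CHRND and CHRNE were listed at 0, and so were the skeletal muscle markers. CHRNG, another muscle partner, was at 0.071 FPKM in DMSO, about 5 fragments, and listed at 0 with JG231. Of the other neuronal subunits, CHRNA2, CHRNA4, CHRNA6, CHRNA7 and CHRNB3 were also listed at 0 in every library. The summed level of the family was 35.7, 30.2 and 32.7 FPKM, of which CHRNA9 held 46.2%, 63.8% and 64.6%.

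Of the 18 expressed genes, HTR3A alone was highest at 2.5 µM. It encodes the subunit that forms serotonin-gated 5-HT3 channels by itself and was at 4.51 FPKM in DMSO, 10.6 at 2.5 µM and 4.23 at 5 µM. The library at 2.5 µM was 2.36-fold above DMSO, a change of 1.22 (interval 0.98 to 1.51) against a spread of 0.35. At 5 µM the change was -0.09 (-0.39 to 0.21), and the difference between the doses was -1.31. About 478 fragments lay behind the value at 2.5 µM, against 160 in DMSO and 224 at 5 µM. It was the single expressed gene higher by over 1 in either comparison with DMSO. HTR3B, HTR3C and HTR3D were listed at 0.

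GABA-A receptors, chloride channels opened by GABA, held subunits that were higher and subunits that were lower. GABRA3 (chromosome X, 152166234 to 152451315), an alpha subunit that helps form the GABA site, was at 2.24 FPKM in DMSO, 3.49 at 2.5 µM and 3.84 at 5 µM. Both changes, 0.62 (interval 0.34 to 0.96) and 0.75 (0.49 to 1.08), exceeded the spread of 0.47. GABRG3 (chromosome 15, 26971181 to 27541984), a gamma subunit, was at 1.83, 2.49 and 2.71 FPKM. Its changes of 0.43 and 0.54 were within the spread of 0.56, though the counting intervals lay above 0. GABRA3 and GABRG3 were the 2 expressed genes called higher at both doses. After the rescaling their changes at 5 µM were 0.38 and 0.18 and at 2.5 µM 0.34 and 0.15, so that GABRG3 was no longer called. GABRA3 was still called, with both changes within its spread of 0.47.

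GABRQ and GABRD, which encode less common subunits, were lower with JG231 in different patterns. GABRQ (chromosome X, 152637895 to 152657542) was at 1.39 FPKM in DMSO, 0.231 at 2.5 µM and 0.256 at 5 µM. Both JG231 libraries lay far below DMSO, at 16.6% and 18.4% of its level, with changes of -2.17 and -2.07 against a spread of 1.09. With a pseudocount of 1 these changes were -0.96 and -0.93, within the wider threshold of 1. GABRD, the delta subunit of extrasynaptic receptors, was at 3.18, 0.751 and 2.27 FPKM. It was lowest at 2.5 µM, with a change of -1.95 (interval -2.75 to -1.49), and the change of -0.47 at 5 µM was within the spread of 0.59. The change at 5 µM was -0.84 after the rescaling and -0.77 relative to the trend with transcript length, both beyond the spread, and that at 2.5 µM was -1.25 with a pseudocount of 1. GABRQ lies near GABRA3 on chromosome X with GABRE, which was listed at 0, so neighbors there differed in direction.

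The other alpha subunits did not reach 1 FPKM, and GABRA4 was listed at 0 throughout. GABRB2, named after its values were seen, was at 0.702, 0.304 and 0.170 FPKM. The summed level of the family was 15.3 FPKM in DMSO, 11.96 at 2.5 µM and 12.9 at 5 µM.

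Glycine receptors were lower at both doses and lowest at 5 µM. GLRB, the beta subunit that links the receptor to gephyrin, was at 3.34 FPKM in DMSO, 2.71 at 2.5 µM and 1.73 at 5 µM. Its change at 2.5 µM was -0.29 (interval -0.63 to 0.01), within the spread of 0.50, and at 5 µM -0.91 (-1.30 to -0.61). GLRA3, an alpha subunit that binds glycine, was at 2.04, 0.936 and 0.247 FPKM. The libraries were well apart, with 285, 166 and 52 fragments and changes of -1.05 and -2.63 against a spread of 0.82. At 5 µM its level was 8.27-fold below DMSO and the difference from 2.5 µM was -1.58. GLRA3 reached 1 FPKM in DMSO alone, and with a pseudocount of 1 its change at 5 µM was -1.29. The family's summed level was 6.12 FPKM in DMSO, 3.89 at 2.5 µM and 1.98 at 5 µM.

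Kainate receptors are glutamate-gated cation channels, and all 3 expressed subunits were lower at 5 µM. GRIK3 (ENSG00000163873, chromosome 1, 36795527 to 37034515), a core subunit of low glutamate affinity, was at 27.3 FPKM in DMSO, 5.10 at 2.5 µM and 4.69 at 5 µM. The DMSO library was far above the others, which differed from each other by -0.12. The changes were -2.40 (interval -2.52 to -2.32) and -2.51 (-2.64 to -2.44), against a spread of 0.27. With 4164, 986 and 1071 fragments behind it, GRIK3 was the most precisely counted of the members, and its level at 5 µM was 5.81-fold below DMSO.

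GRIK5 and GRIK2 lay closer to their DMSO levels. GRIK5, a subunit of high affinity that needs a core partner, was at 6.47 FPKM in DMSO, 5.59 at 2.5 µM and 5.08 at 5 µM. Both changes, -0.21 and -0.34, were within the spread of 0.37, but after the rescaling they were -0.50 and -0.72, beyond it. GRIK5 overlaps ZNF574 on the opposite strand by 1730 bp, and ZNF574 was at 4.66, 9.08 and 7.35 FPKM. GRIK2, a core subunit, was at 2.16, 1.70 and 1.33 FPKM. Its change of -0.67 at 5 µM exceeded the spread of 0.56, and that of -0.33 at 2.5 µM did not. The family summed to 36.5, 12.9 and 11.7 FPKM, with GRIK3 at 74.7%, 39.6% and 40.1% of the sum, so that in DMSO most of the kainate receptor RNA was GRIK3.

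The NMDA family was represented by GRIN3B, a glycine-binding subunit. It was at 1.40 FPKM in DMSO, 0.180 at 2.5 µM and 1.08 at 5 µM. The library at 2.5 µM held about 12 fragments, the fewest behind any value of an expressed member, and stood apart with a change of -2.43 (interval -3.98 to -2.08). With a pseudocount of 1 that change was -1.03. At 5 µM the change was -0.35 (-0.85 to 0.09), within the spread of 0.86. GRIN3B overlaps TMEM259 by 85 bp on the opposite strand, a gene at 64.0 to 75.6 FPKM, so reads at that end are uncertain. GRIN1, the subunit that conventional NMDA receptors require, was at 0.785 FPKM in DMSO, 0.0073 at 2.5 µM and 0.043 at 5 µM, or about 55, 1 and 5 fragments, and is named after its values were seen. GRIN2A and GRIN2B were listed at 0.

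P2RX4, an ATP-gated channel of the cell surface and lysosomes, was among the 3 expressed genes nearest to their DMSO level at 5 µM. It was at 3.47, 2.94 and 2.92 FPKM, with a change of -0.24 at each dose, within the threshold and the spread of 0.48. The counting intervals of both changes, drawn from 98, 105 and 124 fragments by the canonical transcript length, held 0. By the length of all exons the fragments were 444, 476 and 559, and no interval was drawn from those. The 3 genes within the threshold at 5 µM were HTR3A, P2RX4 and CHRNB1, and at 2.5 µM P2RX4, GRIK5 and CHRNA9. After the rescaling the first 3 were at -0.46, -0.61 and -0.34 at 5 µM.

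The 26 genes above 0 and under 1 FPKM had a median highest value of 0.203 FPKM. 17 were highest in DMSO and 7 were listed at 0 in both JG231 libraries. Among the 7789 genes of the table in the same range, 58.5% were highest in DMSO and 33.4% were at 0 in both JG231 libraries. The genes nearest to 1 FPKM after CHRNA10 were GRID1, a delta glutamate receptor gene, at 0.210, 0.836 and 0.624 FPKM, and GRID2IP at 0.797, 0 and 0.422. GRID1 was thus highest at 2.5 µM, with about 105 fragments against 21 in DMSO. The 4 AMPA receptor genes summed to 0.109 FPKM in DMSO and were listed at 0 with JG231.

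Changes in these libraries varied with transcript length. For the shortest decile of protein-coding genes by canonical transcript (middle length 920.5 bp), the median change was 0.55 at 5 µM and 0.39 at 2.5 µM. For the longest decile (middle length 9262.5 bp) it was -0.56 and -0.28. The expressed subunit genes had a median canonical length of 3646 bp, against 3275 bp for all protein-coding genes that reached 1 FPKM. Relative to the trend, the median of the 18 genes was -0.52 at 5 µM and -0.40 at 2.5 µM. GRIK3, with 9491 bp, was at -1.97 and -2.09 relative to the trend, and GLRA3, with 8697 bp, at -2.12 and -0.76. GABRG3, whose transcript is the longest of the expressed members at 10862 bp, was above the trend by 1.14 and 0.78. The part of length in the single changes was not tested.

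**Figure D4:**
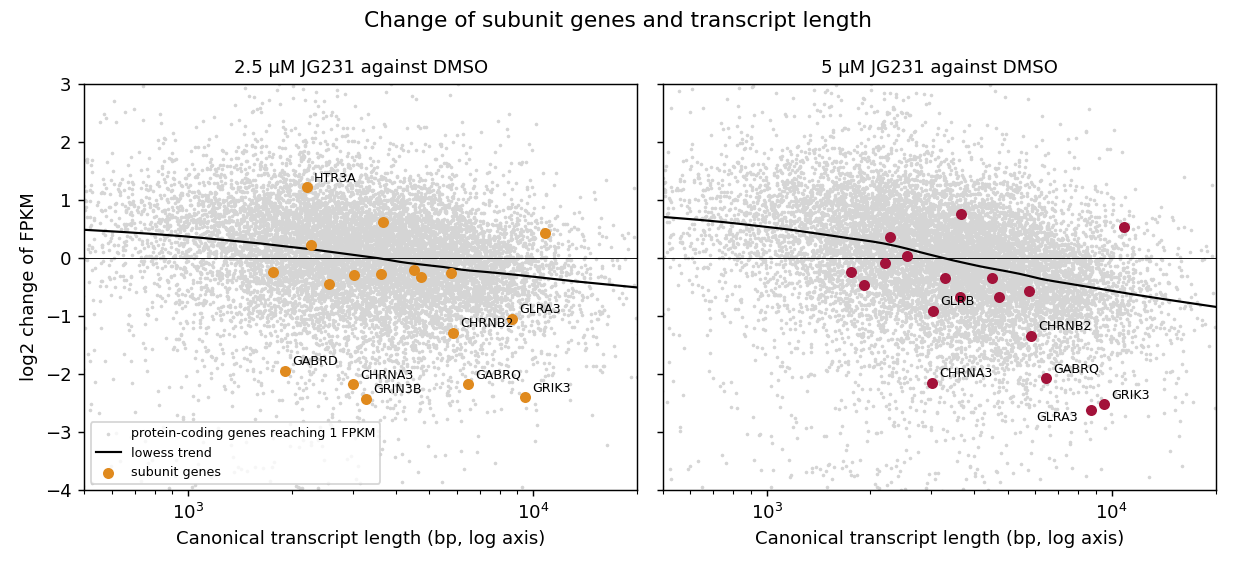
Log2 change of FPKM against DMSO (y axis) by canonical transcript length in bp (x axis, log scale) at 2.5 µM (left) and 5 µM (right). Grey dots are protein-coding genes that reached 1 FPKM, the line is their lowess trend, large points are the 18 expressed subunit genes, genes beyond the axes are not drawn, and GRIK3 and GLRA3 lie below the line in both panels while GABRG3 lies above it.

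Receptors also need proteins that fold, traffic and anchor them, and lists of such genes were examined. Their counts stand beside the table's 44.5% lower and 35.8% higher at 5 µM, and 42.9% and 35.9% at 2.5 µM. As with the subunit genes, a gene that reached 1 FPKM in DMSO alone could only be lower. A gene that reached it at a single dose alone could only be higher at that dose. The counts and medians of the lists are descriptions without a test. Of the 12 nicotinic assembly factors, 7 reached 1 FPKM, and at 5 µM 3 were lower, close to the table's share, and 0 higher (median -0.11). At 2.5 µM 5 were lower and 0 higher, with a median of -0.82. RIC3, an endoplasmic reticulum chaperone of nicotinic and 5-HT3 receptors, was at 2.97 FPKM in DMSO, 1.17 at 2.5 µM and 0.472 at 5 µM, a change of -2.42 at the higher dose.

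Of the 24 auxiliary subunits of glutamate receptors, 8 reached 1 FPKM, and 7 were lower and 0 higher at 5 µM (median -0.71). At 2.5 µM 6 were lower and 1 higher. SHISA8, of a family of AMPA receptor auxiliary proteins, was at 5.31, 3.63 and 1.479 FPKM. Among 22 postsynaptic scaffolds of glutamate receptors, 16 reached 1 FPKM, 12 of them lower and 2 higher at 5 µM (median -1.04), and 9 lower and 4 higher at 2.5 µM. SHANK2, and also SHANK3, HOMER2 and CAMK2B, named after their values were seen, reached 1 FPKM in DMSO alone. These scaffolds could only be lower. DLGAP1, which bridges DLG and SHANK scaffolds, was at 14.8, 5.22 and 4.63 FPKM. SHANK2, a scaffold that links to actin, was at 1.64, 0.661 and 0.339 FPKM.

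The assembly and anchoring proteins of GABA-A and glycine receptors were lower and higher in shares near those of the table. Of 20 genes, 12 reached 1 FPKM, with 4 lower and 5 higher at 5 µM and 5 lower and 4 higher at 2.5 µM. NLGN2, the neuroligin of inhibitory synapses, was at 22.7 FPKM in DMSO, 4.07 at 2.5 µM and 5.08 at 5 µM, a change of -2.13 at 5 µM. SLITRK3, an adhesion protein of the same synapses, was at 2.58, 0.411 and 0.187 FPKM. GABARAPL1, which belongs to the ATG8 family and is shared with autophagy, was at 8.05, 18.0 and 16.6 FPKM. PLCL2, an inactive phospholipase C-like protein, was at 1.32, 2.76 and 3.54 FPKM.

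Among 35 genes for synthesis, loading and reuptake of the transmitters, 10 reached 1 FPKM, 7 lower and 2 higher at 5 µM (median -0.65), and 5 lower and 3 higher at 2.5 µM, the latter near the table's shares. CHAT, GAD2, SLC18A3 and SLC32A1, which make or load acetylcholine and GABA, were listed at 0. GAD1, the other GABA-synthesising enzyme, named after its values were seen, was at 2.31, 3.22 and 2.69 FPKM. DDC, which makes serotonin and dopamine and is also on the neuroendocrine list, was at 15.3, 3.88 and 4.93 FPKM. ACHE, which breaks down acetylcholine, was at 1.71, 4.96 and 4.82 FPKM, and SLC6A9, a glycine transporter, at 1.16, 5.69 and 3.83. SLC1A1, a glutamate transporter, was at 1.48 and 0.356 FPKM and listed at 0 at 5 µM. NT5E, an ectoenzyme that makes adenosine, was at 1.03 and 0.043 FPKM and also listed at 0 there.

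The metabotropic receptors for the same transmitters had 12 of 39 genes at 1 FPKM or more. 8 were lower and 2 higher at 5 µM (median -0.35), and 7 lower and 2 higher at 2.5 µM. Lower genes took a larger share than in the table at each dose, but GRM4 passed the filter through DMSO alone and could only be lower. The 2 genes higher at 5 µM, P2RY2 among them, reached 1 FPKM there alone and could only be higher there. GRM4, a glutamate receptor, was at 1.86, 0.461 and 0.25 FPKM, and P2RY2, an ATP receptor, at 0.109, 0.549 and 1.13. HTR2B, a serotonin receptor, was at 6.12, 2.58 and 2.65 FPKM, and P2RY11 at 6.61, 3.64 and 2.86. Of the 9 genes that set the chloride gradient, 8 reached 1 FPKM, with 6 lower and 1 higher at 5 µM and 5 lower and 2 higher at 2.5 µM. WNK2, a kinase that regulates chloride cotransporters, was at 6.94, 2.36 and 2.40 FPKM. Of the neuroendocrine markers 7 were lower and 1 higher at 5 µM and 6 lower and 2 higher at 2.5 µM. SCG2, a secretory granule protein and the marker higher at 5 µM, was at 15.3, 29.5 and 30.6 FPKM. The part of these markers in the changes of the receptor genes was not tested.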

How the data were processed

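RNA-seq values of 3 H660 libraries were analysed, 1 per condition. The authors deposited FPKM values as 1 table with 58735 Ensembl genes in rows and the libraries in columns. The submitters' processing notes name HISAT2, featureCounts and GRCh38/hg38, and the paper's methods name HISAT, StringTie and a Top Hat-Cufflinks pipeline. Which of these made the table is not settled. Versions, annotation release and the use of strand in counting are not given in the sources used here. FPKM is corrected for length and depth but not otherwise scaled between libraries.

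Identifiers of 58207 rows were found in GENCODE release 44. Changes were log2 with a pseudocount of 0.1, called past 0.25 in genes with at least 1 FPKM in any library. Depth was read from the steps in FPKM times exon length, where 1 fragment is worth 62.2 FPKM bp in DMSO, 49.1 at 2.5 µM and 41.6 at 5 µM. In genes with a single transcript and under 50 fragments, 92.0%, 89.8% and 88.1% of values came within 0.15 of a whole fragment. Member fragments used the canonical transcript length and are approximate. The deposited values are not counts, so no count model was used. The length trend was a lowess with a fraction of 0.3.

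Named were the expressed members, the 3 nearest below 1 FPKM and, per partner list, up to 3 of the lowest and 3 of the highest changes beyond 1 at 5 µM with the same direction at both doses. A few of these are not reported by name. Members and lists were chosen with earlier results of these data known. Alternatives were other pseudocounts, floors, thresholds and scalings, centring on the median gene and removal of the length trend. The scripts were tested on simulated data. The software was pandas 2.3.3 and numpy 2.4.6 under Python 3.11.15, with statsmodels 0.14.6 for lowess, scipy 1.17.1 for intervals and matplotlib 3.10.9 for plots.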

Additional observations from a re-analysis of the deposited data

How the results depend on the processing

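With 1 library per condition, neither a test nor leaving out a replicate was possible, and a difference between libraries cannot be told apart from a difference between treatments. No paired analysis was possible because the libraries share no replicate structure beyond a single sample each. Counts and medians of expressed members stayed within 1.5 times their reported value in 63 of 75 combinations of value and alternative. With a floor of 0.5 FPKM, 26 members entered, of which 19 were lower at 2.5 µM (median -0.70) and 7 higher at 5 than at 2.5 µM, in a table with 45.7% and 25.7%. With libraries rescaled without mitochondrial and small RNA genes, 1 member was higher at 5 µM, the medians were -0.84 at 5 µM and -0.61 at 2.5 µM, and CHRNA9 reversed from 0.35 to -0.024 there. With the length trend removed, 4 members were lower and 5 higher at 5 than at 2.5 µM, against 6 and 3 with it, in a table with 31.1% lower and 24.9% higher. With a threshold of 1, 5 were lower and 0 higher at 5 µM, 7 lower and 1 higher at 2.5 µM, and 2 lower at 5 than at 2.5 µM, since fewer changes are that large. A pseudocount of 1 made the changes of low genes smaller, by its construction, with GABRQ at -0.93, CHRNA3 at -1.10 and GLRA3 at -1.29 at 5 µM. Signs of single genes changed in 5 cases, of which CHRNA9 at 5 µM was the 1 called value. The others were CHRNA9 at 2.5 µM (-0.07) and CHRNB1 at 5 µM (-0.34) after rescaling, CHRNB1 at 5 µM without the length trend (-0.12), and HTR3A at 5 µM after centring (0.0022). Values under about 20 fragments, such as GRIN3B at 2.5 µM, limit what can be said of the lowest members.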
